A study of Caenorhabditis elegans with 15 samples.

Results

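Oxidative phosphorylation genes encode the respiratory chain of mitochondria and the ATP synthase that it powers. They were taken from the deposited table of gene counts of Caenorhabditis elegans by symbol, as every gene named nuo, gas, sdha, sdhb, sdhd, mev, isp, ucr, cyc, cco, cox, atp, asb or asg with a number. This gave 34 of the 14831 genes in the table. By complex they were 7 genes of complex I, 5 of complex II, 6 of complex III, 2 cytochrome c genes, 2 subunits and 4 assembly factors of complex IV, and 8 genes of complex V, the ATP synthase. The rule went by name, so many subunits known only by a sequence name are not among them and are counted from a separate list.

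The study tagged RNA in chosen tissues by trans-splicing, in which a short spliced leader RNA is joined to the 5′ end of a pre-mRNA, and tagged RNA was captured, amplified by PCR and sequenced. All worms carried a transgene for a tagged leader and were kept at 20 °C. The strain PU2-3::tag:SL1(G16C) served for multiple tissues of mixed-stage worms (2 libraries), Pmyo-3::tag:SL1(G16C) for muscle at L1 (1), L2 (1), dauer (2), young adult (2) and day 12 (2), and Prgef-1::tag:SL1(G16C) for all neurons of young adults (2) and of day 12 worms (2). Dauers came from liquid culture with detergent selection and the other worms from plates. A muscle library of mixed stage came from Pmyo-3::tag:SL2(T5A), with a change in the SL2 leader (1), though its description names SL1. Day 12 worms had been kept on 400 µM fluorodeoxyuridine, which blocks progeny, so that age and drug cannot be told apart, nor can tissue and stage where a group is set against multiple tissues. The myo-3 promoter is active in body-wall muscle and the rgef-1 promoter in neurons, and tagged RNA from a group says nothing of cells outside that promoter's reach.

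Complex I and complex II pass electrons from NADH and from succinate to ubiquinone, complex III passes them on to cytochrome c, and complex IV hands them to oxygen. Complexes I, III and IV pump protons across the inner mitochondrial membrane, and complex V makes ATP as the protons return. Mutants of several of the worm genes are classic subjects of work on lifespan and oxidative stress, among them isp-1, mev-1, gas-1 and nuo-6. Some subunits have paralogs in the worm, which allows tissues to read different copies of the same subunit.

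The shallowest library, day 12 neuron replicate 1, held 57104 reads in genes, and the deepest, dauer replicate 2, held 9587967. CPM is the read count of a gene scaled to a common library total, and 3 reads in the shallowest library amounted to 52.5 CPM before the scaling named next. With that scaling, the 4 reads of atp-2 in that library stood at 43.3 CPM. The levels given are CPM scaled by edgeR's TMM factors, and p-values are from edgeR's quasi-likelihood test with Benjamini-Hochberg adjustment over all 8954 tested genes (threshold 0.05), with log2 fold changes ± SE. Reads were counted at the splice acceptor that receives the leader and not along the transcript, so no length scaling applies. The labels number the replicates and do not say whether they came from separate cultures, so p-values measure only the spread between these libraries, which may be technical. Replicates of every group with a pair differed by more than counting noise, and the median oxidative phosphorylation gene differed between replicates by 0.14 on the log2 scale in multiple tissues and by 1.403 in day 12 muscle, where 20 of the genes were over 2-fold apart. Body-wall muscle markers took 2.60 to 2.68% of reads in young adult muscle, 0.428 to 0.516% in dauer muscle and 0.00369 to 0.00412% in multiple tissues, though unc-15, the paramyosin gene, was at 0 in every muscle library. In the SL2-tag library 1 of the 7 muscle markers was read and myo-3 itself was at 0. Neuron markers took 0.515 to 0.567% of reads in young adult neurons, but also 0.294 to 0.357% in young adult muscle, against 0.0369 to 0.0394% in multiple tissues, and unc-31 was at 0 in every neuron library.

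The 34 genes together held a similar share of reads in most groups, with the larval muscle libraries above the rest. They took 1.06 and 1.04% of reads in multiple tissues, 2.92% in L1 muscle and 1.49% in L2 muscle, 0.836 and 0.810% in dauer muscle, 0.938 and 0.912% in young adult muscle, and 0.614 and 1.14% in day 12 muscle. In neurons they took 0.899 and 0.988% in young adults and 0.585 and 0.460% on day 12. The L1 and L2 libraries have no replicate, so these shares have no check between samples. In such bulk samples fewer cells of a type and less RNA per cell cannot be told apart. Complex V held the largest part of the 7 groups in multiple tissues, at 0.389 and 0.390% of reads, and it stood at 0.111 and 0.122% in young adult neurons, where complex II (0.238 to 0.262%), complex IV (0.277 to 0.352%) and cytochrome c (0.149 to 0.200%) were above it. Cytochrome c held 0.866% in L1 muscle and 0.0583 and 0.0674% in multiple tissues.

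**Figure D1:**
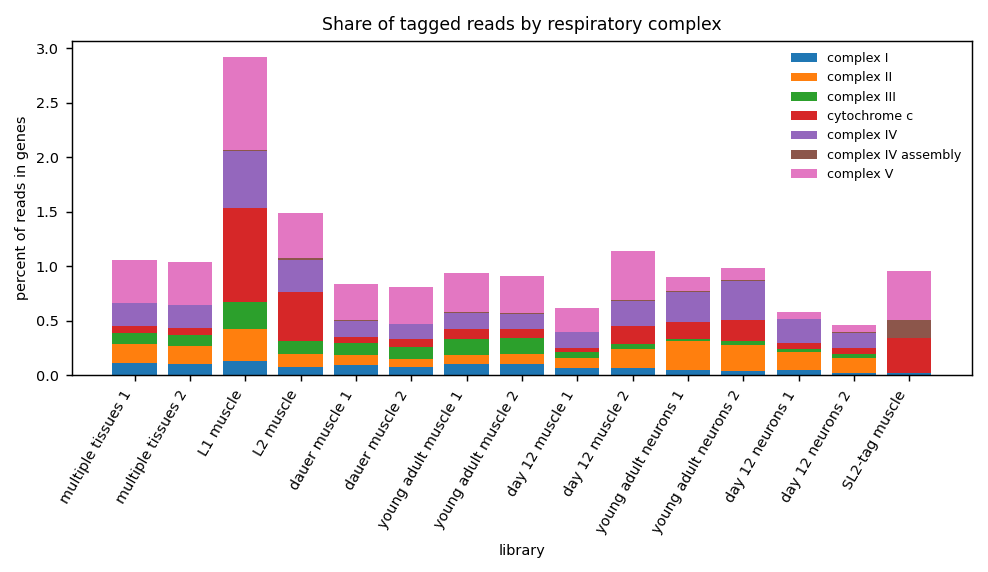
Stacked bars give the percent of all reads in genes held by each respiratory complex, for each of 15 libraries. The L1 muscle bar is the tallest at 2.92%, the neuron bars hold little complex V, and the SL2-tag bar consists mostly of complex V, cytochrome c and complex IV assembly.

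**Figure D2:**
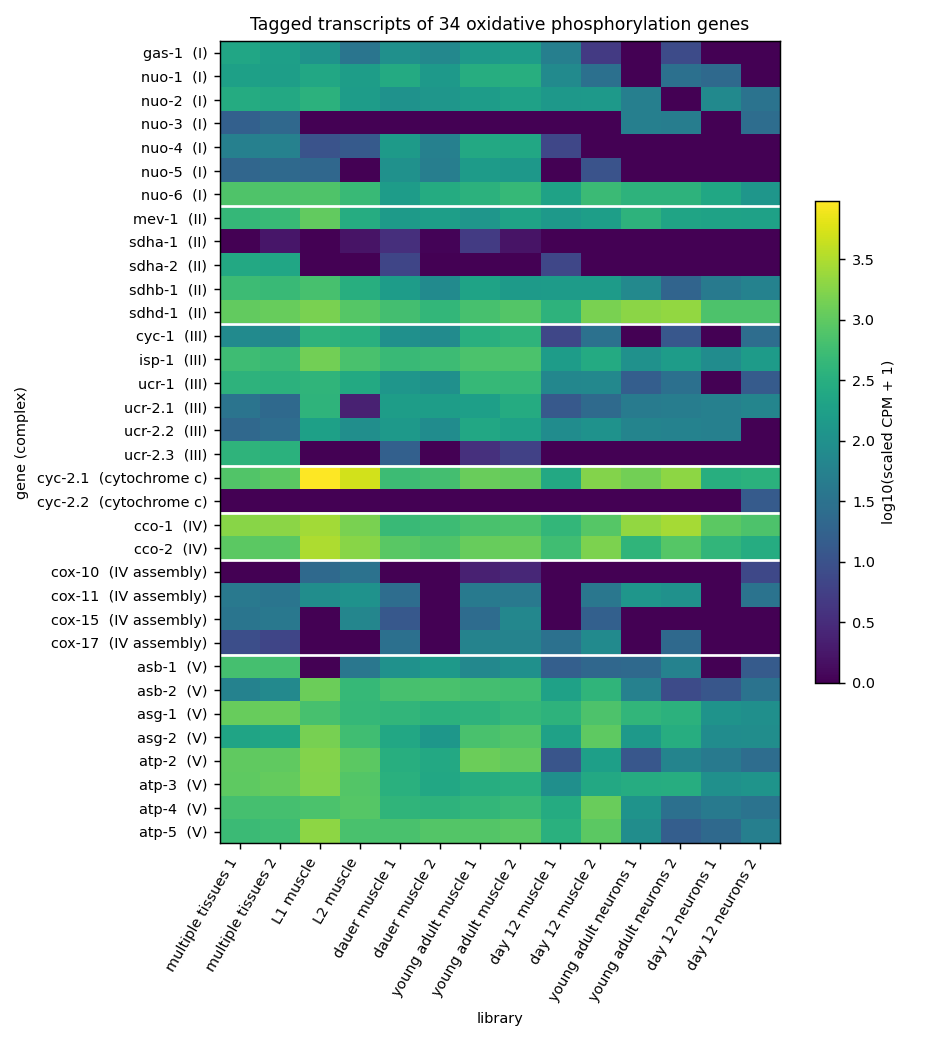
Colours give log10(scaled CPM + 1) of each gene (rows, grouped by complex) in each of 14 SL1-tag libraries (columns). Dark cells are at or near 0: ucr-2.3 and sdha-2 are bright only in multiple tissues, and asb-1 and asb-2 are bright in opposite libraries.

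Of the ATP synthase, the paralogs of the b subunit, part of the stalk that holds the catalytic head, showed the plainest exchange between libraries. From background in C. elegans, asb-1 is known as the germline copy and asb-2 as the somatic copy. asb-1 was read at 630.2 and 609.8 CPM in multiple tissues, 0 in L1 and 36.5 in L2 muscle, 101 and 137 in dauer muscle, 72.0 and 99.9 in young adult muscle and 14.9 and 20.6 in day 12 muscle. In neurons asb-1 stood at 21.8 and 57.9 CPM in young adults and 0 and 12.7 on day 12. Both multiple-tissue libraries lay above every other SL1-tag library for asb-1. asb-2 was read at 56.9 and 73.3 CPM in multiple tissues, 1241 in L1 and 461 in L2 muscle, 669 and 699 in dauer muscle, 612 and 568 in young adult muscle and 189 and 400.0 in day 12 muscle. In neurons asb-2 stood at 54.4 and 7.23 CPM in young adults and 10.8 and 31.8 on day 12. In multiple tissues asb-1 was the higher gene, and in every SL1-tag muscle library asb-2 was, with no overlap between the 2 groups of libraries for either gene. The share of asb-2 in the reads of both genes was 8.28% (6.74 to 10.0) and 10.7% (9.33 to 12.3) in multiple tissues, with exact Clopper-Pearson 95% intervals. Reads after PCR were not marked by molecule, so intervals and lower bounds cover counting error only. It was 89.5% (86.5 to 92.0) and 85.05% (82.8 to 87.1) in young adult muscle, 86.9 and 83.6% in dauer muscle, 92.7 and 95.1% in day 12 muscle, 100% of 796 reads in L1 and 92.7% in L2 muscle. The neuron libraries held at most 21 reads of the pair, and asb-2 was the higher gene in young adult replicate 1 and asb-1 in replicate 2. The SL2-tag muscle library held 974 reads of asb-1 and 0 of asb-2. The shares above cover SL1-tagged RNA alone and leave out asb-1 RNA that took SL2. The genes lie apart (asb-1 on chromosome III, 4594543 to 4595821, minus strand, asb-2 on chromosome X, 4469766 to 4471476, plus strand of WBcel235).

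The fold changes of the b subunit genes passed the threshold in some of these comparisons. Against multiple tissues asb-2 rose by a log2 fold change of 3.39 ± 0.82 (adjusted p = 0.0325) in dauer muscle and 3.54 ± 0.82 (adjusted p = 0.0303) in larval muscle, the mean of L1 and L2. In young adult muscle its value was 3.18 ± 0.81 (adjusted p = 0.0517), which missed the threshold. asb-1 fell in day 12 muscle (-5.11 ± 0.95, adjusted p = 0.0102) and in larval muscle (-8.59 ± 1.304, adjusted p = 0.00405), where L1 held no read and the size depends on the prior count. Without L1 the larval value of asb-1 was -4.08 (adjusted p = 0.0956). Within muscle, asb-1 was higher in dauer than in larval muscle by 6.21 ± 1.29 (adjusted p = 0.0338), with 1.70 (adjusted p = 0.484) without L1, 10.71 (adjusted p = 0.0621) without L2 and 5.58 (adjusted p = 0.0613) without dauer replicate 2. The call of asb-2 in dauer was lost without either multiple-tissue library or without dauer replicate 2 (highest adjusted p = 0.196), the call in larvae without either multiple-tissue library or without L1 (highest adjusted p = 0.157), and the call of asb-1 in day 12 muscle without either multiple-tissue library (highest adjusted p = 0.0624), all with the same direction. Germline markers moved with this exchange: the 10 of them took 0.747 to 0.766% of reads in multiple tissues, with all 10 read, and at most 0.0194% in any muscle or neuron library, where 4 of 10 were read in each young adult muscle library and daz-1, egg-1, glp-1, oma-1 and puf-5 were at 0 there. The part of germline RNA in the result was not tested.

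**Figure D3:**
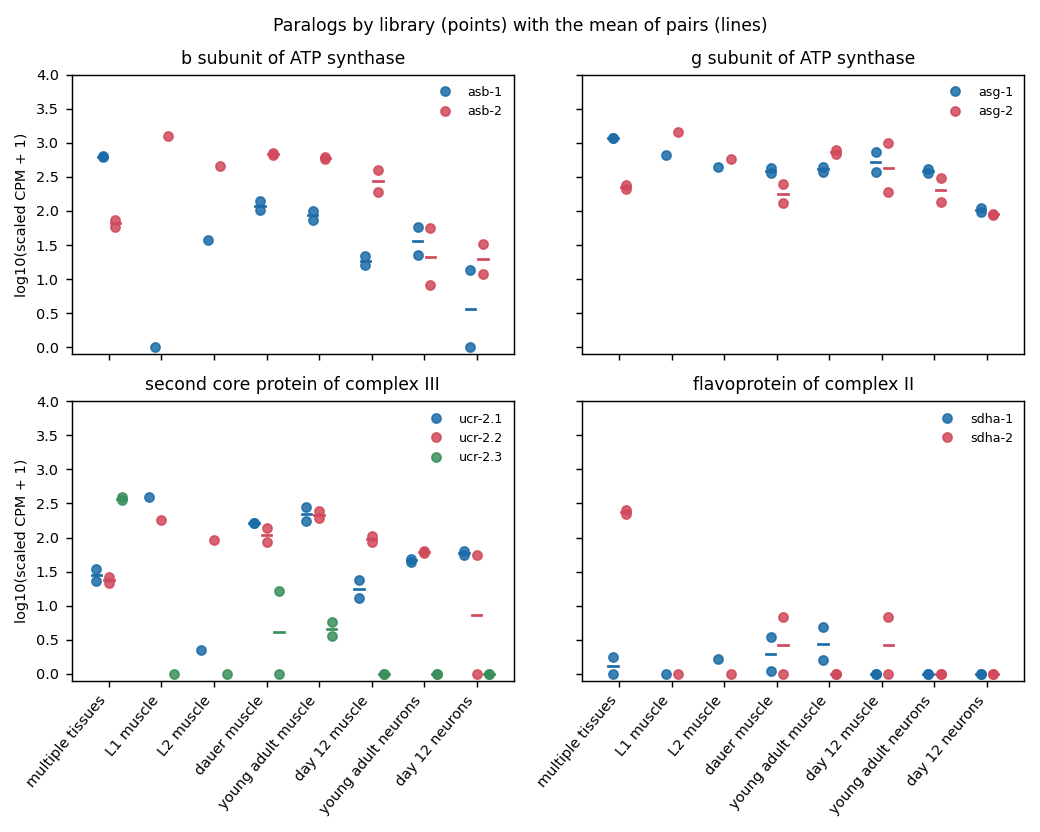
Points give log10(scaled CPM + 1) of each paralog in each SL1-tag library, and short lines the mean of the 2 libraries of a group. The order turns between multiple tissues and muscle for asb-1 and asb-2, and ucr-2.3 is above ucr-2.1 and ucr-2.2 in multiple tissues alone, as sdha-2 is high there alone while sdha-1 is near 0 throughout.

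The g subunit of the ATP synthase membrane part, encoded by asg-1 and asg-2, differed less sharply. asg-1 was read at 1154 and 1183 CPM in multiple tissues, 666 in L1 and 443 in L2 muscle, 419 and 356 in dauer muscle, 373 and 442 in young adult muscle and 367 and 742 in day 12 muscle. In neurons asg-1 stood at 417 and 362 CPM in young adults and 108 and 95.3 on day 12. As with asb-1, both multiple-tissue libraries were the highest of the SL1-tag libraries. asg-2 was read at 211 and 238 CPM in multiple tissues, 1442 in L1 and 584 in L2 muscle, 244 and 128 in dauer muscle, 684 and 780.2 in young adult muscle and 189 and 976 in day 12 muscle. In neurons asg-2 stood at 134 and 300.1 CPM in young adults and 86.5 and 88.9 on day 12. Here the share of asg-2 in the reads of both genes was 15.5 and 16.7% in multiple tissues, 64.7 and 63.8% in young adult muscle, 36.8 and 26.5% in dauer muscle and 68.4% in L1. Day 12 muscle gave 33.96 and 56.8%, so that its replicates stood on either side of an equal share. Every SL1-tag muscle library was above both multiple-tissue libraries in that share. So was every neuron library, at 24.3 and 45.4% in young adults and 44.4 and 48.3% on day 12. The fold change of asg-2 in young adult muscle over multiple tissues was 1.71 ± 0.75 (adjusted p = 0.226) and that of asg-1 was -1.52 ± 0.48 (adjusted p = 0.104), and neither passed the threshold.

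The catalytic β subunit gene atp-2 and the stalk genes atp-3 (the subunit that confers oligomycin sensitivity), atp-4 (coupling factor F6) and atp-5 (subunit d) were low in neurons. atp-2 was read at 1029.8 and 1014 CPM in multiple tissues, 1722 in L1 and 938 in L2 muscle, 318 and 255 in dauer muscle, 1235 and 1049.8 in young adult muscle and 10.4 and 176 in day 12 muscle. In neurons atp-2 stood at 10.9 and 61.5 CPM in young adults and 43.3 and 25.4 on day 12. Day 12 muscle was below young adult muscle as well, without passing the threshold (log2 fold change -3.60 ± 1.08, adjusted p = 0.122). atp-5 was read at 516 and 545 CPM in multiple tissues, 1989 in L1 and 684 in L2 muscle, 684 and 809 in dauer muscle, 824 and 908 in young adult muscle and 337 and 944 in day 12 muscle. In neurons atp-5 stood at 87.1 and 14.5 CPM in young adults and 21.6 and 50.8 on day 12. Both genes were lower in all 4 neuron libraries than in either multiple-tissue or either young adult muscle library. For atp-2 the log2 fold change in young adult neurons was -4.82 ± 1.18 (adjusted p = 0.0209) against multiple tissues, and young adult muscle was above young adult neurons by 4.98 ± 1.18 (adjusted p = 0.0211). The first call was lost without young adult neuron replicate 1 (log2 -6.54 to -4.05, highest adjusted p = 0.119) and the second was lost without young adult muscle replicate 1, young adult muscle replicate 2 or young adult neuron replicate 1 (log2 4.21 to 6.70, highest adjusted p = 0.127). For atp-5 the same values were -3.38 ± 0.81 (adjusted p = 0.0196) and 4.09 ± 0.84 (adjusted p = 0.0105). Of these, the call against multiple tissues was lost without young adult neuron replicate 2 (log2 -5.19 to -2.60, highest adjusted p = 0.0695) and the call against muscle was lost without young adult muscle replicate 2 (log2 3.31 to 5.89, highest adjusted p = 0.0525). atp-4 was read at 646 and 649 CPM in multiple tissues, 723 in L1 and 862 in L2 muscle, 403 and 376 in dauer muscle, 433 and 498 in young adult muscle and 281 and 1161 in day 12 muscle. In neurons atp-4 stood at 109 and 28.9 CPM in young adults and 43.3 and 31.8 on day 12. All 4 neuron libraries were below every other SL1-tag library for atp-4. atp-3 was read at 991 and 1088 CPM in multiple tissues, 1682 in L1 and 819 in L2 muscle, 334 and 244 in dauer muscle, 302 and 320.3 in young adult muscle and 93.7 and 256 in day 12 muscle. In neurons atp-3 stood at 287 and 304 CPM in young adults and 97.3 and 114 on day 12. Unlike the other genes named here, atp-3 was about as low in young adult muscle as in young adult neurons (log2 difference 0.08 ± 0.53, adjusted p = 1.00). Against multiple tissues atp-3 fell in day 12 muscle (-2.57 ± 0.55, adjusted p = 0.0188), in young adult neurons (-1.82 ± 0.54, adjusted p = 0.0449) and in day 12 neurons (-3.29 ± 0.59, adjusted p = 0.00604). The day 12 muscle call of atp-3 was lost without multiple-tissue replicate 1 or multiple-tissue replicate 2 (log2 -3.59 to -2.15, highest adjusted p = 0.115), the young adult neuron call was lost without any 1 of its 4 libraries (log2 -2.05 to -1.75, highest adjusted p = 0.206), and the day 12 neuron call held in all 4 fits with 1 library left out (highest adjusted p = 0.0374).

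In complex III, the paralogs ucr-2.1, ucr-2.2 and ucr-2.3 of the second core protein divided between multiple tissues and the other libraries. ucr-2.3 was read at 390.4 and 353 CPM in multiple tissues, 0 in L1 and 0 in L2 muscle, 15.6 and 0 in dauer muscle, 2.57 and 4.82 in young adult muscle and 0 and 0 in day 12 muscle. In neurons ucr-2.3 stood at 0 and 0 CPM in young adults and 0 and 0 on day 12. Its reads were thus almost all from multiple tissues. ucr-2.1 was read at 33.0 and 22.1 CPM in multiple tissues, 388 in L1 and 1.28 in L2 muscle, 163 and 163 in dauer muscle, 174 and 283 in young adult muscle and 11.9 and 22.5 in day 12 muscle. In neurons ucr-2.1 stood at 43.5 and 47.0 CPM in young adults and 54.1 and 63.5 on day 12. The 2 single larval libraries were far apart for ucr-2.1. ucr-2.2 was read at 20.8 and 25.6 CPM in multiple tissues, 181 in L1 and 91.0 in L2 muscle, 135 and 85.4 in dauer muscle, 244 and 191 in young adult muscle and 86.2 and 104.4 in day 12 muscle. In neurons ucr-2.2 stood at 61.7 and 57.9 CPM in young adults and 54.1 and 0 on day 12. So ucr-2.3 was the highest of them in multiple tissues, and ucr-2.1 and ucr-2.2 were both above it in every other SL1-tag library, except that day 12 neuron replicate 2 held no read of ucr-2.2 or ucr-2.3. Raw reads of ucr-2.3 were 638 and 925 in multiple tissues, 2 and 8 in young adult muscle, 32 and 0 in dauer muscle and 0 in the other libraries. Against multiple tissues ucr-2.3 was at least 282-fold lower (at least 83.3-fold with any 1 library left out) in day 12 muscle and at least 68.4-fold lower (at least 34.1-fold with any 1 library left out) in young adult neurons, computed from 3 counts over the group without reads. In the fit across all genes ucr-2.3 did not pass the threshold in young adult muscle (-6.59 ± 2.46, adjusted p = 0.188). The genes lie on different chromosomes or far apart (ucr-2.3 on chromosome III, 879860 to 881458, plus strand, ucr-2.1 on chromosome X, 12018429 to 12021206, plus strand, ucr-2.2 on chromosome X, 15173904 to 15178145, plus strand). How the authors placed reads that match several copies is not given in the sources used here, so the split between paralogs carries that limit.

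Among these paralogs ucr-2.1 rose in young adult muscle over multiple tissues by 3.05 ± 0.76 (adjusted p = 0.0474) and fell from young adult to day 12 muscle, with a log2 fold change of -3.71 ± 0.78 (adjusted p = 0.0497). The first call was lost when any 1 of its 4 libraries was left out (log2 2.66 to 3.35, highest adjusted p = 0.471), and the second without day 12 replicate 1 or without either young adult library (log2 -4.27 to -3.33, highest adjusted p = 0.267). The share of ucr-2.2 in the reads of ucr-2.1 and ucr-2.2 was 58.5% (52.9 to 63.9) and 40.3% (36.8 to 43.8) in young adult muscle and 87.9% (77.5 to 94.6) and 82.3% (76.3 to 87.3) on day 12. In larvae ucr-2.1 differed between the single libraries, with 249 reads in L1 and 2 in L2, and its larval fold change over multiple tissues of -0.27 ± 0.68 (adjusted p = 0.947) was -4.35 (adjusted p = 0.0831) without L1 and 3.74 (adjusted p = 0.0310) without L2.

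The remaining complex III genes were ucr-1 (the first core protein), isp-1 (the Rieske iron-sulfur protein) and cyc-1 (cytochrome c1). ucr-1 was read at 373 and 355 CPM in multiple tissues, 397 in L1 and 263 in L2 muscle, 123 and 99.1 in dauer muscle, 469 and 449.7 in young adult muscle and 69.9 and 70.0 in day 12 muscle. In neurons ucr-1 stood at 14.5 and 28.9 CPM in young adults and 0 and 12.7 on day 12. ucr-1, on chromosome III, 5592135 to 5594401, plus strand, fell in young adult neurons against multiple tissues by a log2 value of -4.06 ± 0.79 (adjusted p = 0.00742) and was higher in young adult muscle than in young adult neurons by 4.398 ± 0.80 (adjusted p = 0.00594). Both calls, and that of day 12 neurons (-5.58 ± 0.94, adjusted p = 0.00449), held when any 1 library was left out, with highest adjusted p-values of 0.0476, 0.0416 and 0.0163. The day 12 neuron value of ucr-1 rested on 0 and 2 reads, so its size depends on the prior count (log2 -12.49 to -5.09 with 1 library left out). isp-1 was read at 557 and 500.3 CPM in multiple tissues, 1364 in L1 and 696 in L2 muscle, 500.2 and 529 in dauer muscle, 708 and 722 in young adult muscle and 158 and 269 in day 12 muscle. In neurons isp-1 stood at 102 and 155 CPM in young adults and 86.5 and 152 on day 12. For isp-1 the young adult neuron libraries lay below every SL1-tag muscle library. cyc-1 was read at 80.8 and 67.9 CPM in multiple tissues, 369 in L1 and 323 in L2 muscle, 98.2 and 83.7 in dauer muscle, 329 and 394 in young adult muscle and 5.95 and 29.4 in day 12 muscle. In neurons cyc-1 stood at 0 and 10.8 CPM in young adults and 0 and 25.4 on day 12. Both were higher in young adult muscle than in young adult neurons, isp-1 by 2.48 ± 0.52 (adjusted p = 0.0121) and cyc-1 by 6.04 ± 1.44 (adjusted p = 0.0214), and isp-1 also fell in young adult neurons against multiple tissues (-2.04 ± 0.52, adjusted p = 0.0239). The isp-1 call between muscle and neurons was lost without young adult muscle replicate 1, young adult muscle replicate 2 or young adult neuron replicate 1 (log2 2.197 to 2.81, highest adjusted p = 0.0694), and that against multiple tissues was lost without multiple-tissue replicate 1, multiple-tissue replicate 2 or young adult neuron replicate 1 (log2 -2.38 to -1.77, highest adjusted p = 0.115). The cyc-1 call was lost without young adult muscle replicate 1, young adult muscle replicate 2 or young adult neuron replicate 1 (log2 5.05 to 12.41, highest adjusted p = 0.0941). Day 12 muscle held less cyc-1 than young adult muscle in both libraries, with a log2 fold change of -4.31 ± 1.24 (adjusted p = 0.110) that missed the threshold.

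Cytochrome c, the soluble carrier between complexes III and IV, was the most read of the 34 genes in both larval libraries. cyc-2.1 was read at 783 and 935 CPM in multiple tissues, 9575 in L1 and 5200.2 in L2 muscle, 527 and 619.9 in dauer muscle, 1169 and 1103 in young adult muscle and 248 and 1753 in day 12 muscle. In neurons cyc-2.1 stood at 1371 and 2043 CPM in young adults and 314 and 343 on day 12. Of all reads in the 34 genes, cyc-2.1 held 29.6% in L1 and 30.0% in L2 muscle. Larval muscle was above multiple tissues by a log2 fold change of 3.04 ± 0.72 (adjusted p = 0.0333), and dauer muscle was below larval muscle (-3.62 ± 0.74, adjusted p = 0.0327). The first call was lost without L1 or without either multiple-tissue library (log2 2.60 to 3.40, highest adjusted p = 0.113), and the second when any 1 of its 4 libraries was left out (log2 -4.07 to -3.18, highest adjusted p = 0.110). In day 12 muscle the replicates lay on either side of multiple tissues, and the fold change over multiple tissues was 0.22 ± 0.67 (adjusted p = 0.894), or -1.91 (adjusted p = 0.0213) without replicate 2. The second cytochrome c gene, cyc-2.2, had 2 reads in day 12 neuron replicate 2 and 0 in all other libraries.

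In complex IV, cco-1 and cco-2 are the nuclear genes of the subunits Vb and Va, named cox-5B and cox-5A in the WBcel235 annotation. cco-1 was read at 1855 and 1974 CPM in multiple tissues, 2645 in L1 and 1503 in L2 muscle, 491 and 532 in dauer muscle, 689 and 709 in young adult muscle and 434 and 852 in day 12 muscle. In neurons cco-1 stood at 2155 and 2741 CPM in young adults and 962 and 730.5 on day 12. All 6 dauer, young adult and day 12 muscle libraries held less cco-1 than multiple tissues. cco-2 was read at 966 and 924 CPM in multiple tissues, 3103 in L1 and 1909 in L2 muscle, 919 and 764 in dauer muscle, 1149 and 1191 in young adult muscle and 583 and 1548 in day 12 muscle. In neurons cco-2 stood at 395 and 846 CPM in young adults and 422 and 286 on day 12. The order of these genes differed between tissues: cco-1 was above cco-2 in multiple tissues and in every neuron library, and cco-2 was above cco-1 in every SL1-tag muscle library. Against multiple tissues cco-1 fell in dauer muscle (-1.90 ± 0.41, adjusted p = 0.0204) and day 12 muscle (-1.57 ± 0.41, adjusted p = 0.0392), and it was lower in dauer than in larval muscle (-1.96 ± 0.41, adjusted p = 0.0348) and in young adult muscle than in young adult neurons (-1.81 ± 0.41, adjusted p = 0.0173). No comparison passed for cco-2. Each of the 4 calls of cco-1 was lost without 1 or more libraries: any of the 4 in both dauer comparisons, either multiple-tissue library or day 12 replicate 1 for day 12 muscle, and either muscle library or neuron replicate 2 for the comparison with neurons. Their highest adjusted p-values were 0.147, 0.154, 0.220 and 0.119, and the log2 values kept their sign.

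Complex II, succinate dehydrogenase, is encoded by nuclear genes alone. Its flavoprotein has 2 genes, and only sdha-2 was read beyond a few counts. sdha-2 was read at 251 and 222 CPM in multiple tissues, 0 in L1 and 0 in L2 muscle, 5.83 and 0 in dauer muscle, 0 and 0 in young adult muscle and 5.95 and 0 in day 12 muscle. In neurons sdha-2 stood at 0 and 0 CPM in young adults and 0 and 0 on day 12. These were 410 and 583 reads in multiple tissues, 12 in dauer replicate 1, 4 in day 12 muscle replicate 1 and 0 in the other 11 libraries with an SL1 or SL2 tag. Against multiple tissues sdha-2, on chromosome I, 10683270 to 10685587, minus strand, was at least 192-fold lower (at least 61.4-fold with any 1 library left out) in young adult muscle, at least 174-fold lower (at least 50.6-fold with any 1 library left out) in larval muscle and at least 43.6-fold lower (at least 21.7-fold with any 1 library left out) in young adult neurons. sdha-1, on the X chromosome, had at most 5 reads in any library, so the muscle libraries held next to no tagged flavoprotein transcript of either gene. A transcript that does not receive this leader would not be counted, and untagged RNA was not measured. Germline marker shares given above moved with sdha-2 and ucr-2.3 as well, and their part was not tested.

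The other subunits of complex II were read in every SL1-tag library. sdhb-1 was read at 529 and 489.6 CPM in multiple tissues, 664 in L1 and 317 in L2 muscle, 157 and 79.4 in dauer muscle, 204 and 149 in young adult muscle and 153 and 150.0 in day 12 muscle. In neurons sdhb-1 stood at 72.6 and 18.1 CPM in young adults and 43.3 and 57.2 on day 12. sdhb-1, the iron-sulfur subunit gene, fell in neurons against multiple tissues, by log2 values of -3.49 ± 0.77 (adjusted p = 0.0134) in young adults and -3.33 ± 0.78 (adjusted p = 0.0221) on day 12. The young adult call was lost without multiple-tissue replicate 2 (log2 -4.81 to -2.81, highest adjusted p = 0.05002) and the day 12 call was lost without any 1 of its 4 libraries (log2 -3.76 to -3.35, highest adjusted p = 0.0912). The membrane anchor genes passed the threshold in neither neuron group. sdhd-1 stood at 1062 and 1147 CPM in multiple tissues and 1959 and 2199 CPM in young adult neurons, and its log2 fold change was 0.91 ± 0.57 (adjusted p = 0.266). On day 12 sdhd-1 stood at 735 and 737 CPM (-0.59 ± 0.57, adjusted p = 0.494). mev-1, the gene of the other anchor subunit, stood at 452 and 477 CPM in multiple tissues and 377 and 213 CPM in young adult neurons (-0.65 ± 0.53, adjusted p = 0.390). On day 12 mev-1 stood at 195 and 191 CPM (-1.27 ± 0.54, adjusted p = 0.147). Both genes were below both multiple-tissue libraries on day 12. Whether these genes differ from sdhb-1 in their change was not tested.

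Complex I was represented by gas-1 and by 6 nuo genes. gas-1 was read at 229 and 178 CPM in multiple tissues, 109 in L1 and 34.6 in L2 muscle, 98.7 and 70.7 in dauer muscle, 140.1 and 159 in young adult muscle and 50.5 and 3.75 in day 12 muscle. In neurons gas-1 stood at 0 and 7.23 CPM in young adults and 0 and 0 on day 12. gas-1 fell in young adult neurons (-5.79 ± 1.63, adjusted p = 0.0405) and had no read in day 12 neurons, at least 17.0-fold lower (at least 6.27-fold with any 1 library left out) than multiple tissues. The young adult call was lost without any 1 of its 4 libraries (log2 -11.58 to -4.80, highest adjusted p = 0.154), and the day 12 call, at an adjusted p of 0.0375, was also lost without any 1 of its 4 libraries (highest adjusted p = 0.164). nuo-4 was read at 53.2 and 54.2 CPM in multiple tissues, 9.35 in L1 and 12.2 in L2 muscle, 145 and 53.6 in dauer muscle, 248 and 241 in young adult muscle and 5.95 and 0 in day 12 muscle. In neurons nuo-4 stood at 0 and 0 CPM in young adults and 0 and 0 on day 12. Both young adult muscle libraries were above all other SL1-tag libraries for nuo-4. nuo-5 was read at 19.6 and 21.8 CPM in multiple tissues, 20.3 in L1 and 0 in L2 muscle, 103 and 50.1 in dauer muscle, 152 and 133 in young adult muscle and 0 and 9.38 in day 12 muscle. In neurons nuo-5 stood at 0 and 0 CPM in young adults and 0 and 0 on day 12. Neither nuo-4, matching the human NDUFA10 subunit, nor nuo-5, matching NDUFS1, had a read in neurons of young adults. In young adult muscle nuo-4 was at least 45.05-fold higher (at least 22.5-fold with any 1 library left out), with an adjusted p of 0.0302, and nuo-5 was at least 26.2-fold higher (at least 13.1-fold with any 1 library left out), with an adjusted p of 0.0430. Both calls were lost when any 1 of the 4 libraries was left out (highest adjusted p = 0.117 for nuo-4 and 0.145 for nuo-5), and with DESeq2's size factors in edgeR (adjusted p = 0.0618 and 0.0677). nuo-3 went the other way, with 0 reads in all 8 SL1-tag muscle libraries, 15.9 and 21.4 CPM in multiple tissues and 50.8 and 47.0 CPM in young adult neurons. Against multiple tissues, nuo-3 in young adult muscle was at least 15.2-fold lower (at least 4.83-fold with any 1 library left out), and its fit passed no comparison. The other genes, nuo-1, nuo-2 and nuo-6, passed none either. nuo-6, the one nuo gene read in all 14 SL1-tag libraries, ran from 121 to 775 CPM over them.

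The assembly factors of complex IV were read at low levels. cox-10 and cox-15 make the heme A of the enzyme, and cox-11 and cox-17 deliver its copper. Their highest scaled levels in an SL1-tag library were 30.8 CPM for cox-10 in L2 muscle, 123 CPM for cox-11 in young adult neuron replicate 1, 68.6 CPM for cox-15 in young adult muscle replicate 2 and 80.0 CPM for cox-17 in day 12 muscle replicate 2. None passed a comparison. In cox-17, multiple tissues held 7.95 and 5.72 CPM and young adult muscle 60.4 and 59.0 CPM.

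The site at which the leader was joined to cox-11 differed between libraries, while 31 of the 34 genes had over 90% of their reads at 1 acceptor site. The acceptors of cox-11 lie at positions 13244323 and 13245185 of the plus strand of chromosome IV in the coordinates of the deposited table, the first 1 base before the annotated gene start of WBcel235. At the upstream site fell 60 of 65 and 83 of 90 reads in multiple tissues, 47 of 52 in dauer replicate 1, 24 of 33 and 58 of 67 in young adult muscle, and all 420 with the SL2 tag. In contrast, 0 of 56 reads in L1, 0 of 163 in L2, 0 of 59 in day 12 muscle replicate 2, 0 of 34 and 0 of 28 in young adult neurons and 0 of 5 in day 12 neuron replicate 2 were upstream. The exact 95% intervals of the upstream share were 54.5 to 86.7% and 76.0 to 93.7% in young adult muscle, and they reached up to 10.3 and 12.3% in young adult neurons, 6.38% in L1 and 2.24% in L2 muscle. The sites were not compared by a test, and dauer replicate 2, day 12 muscle replicate 1 and day 12 neuron replicate 1 held no cox-11 read. The other genes with divided sites were nuo-3, with 4 sites at low counts, and cox-10, with 79.1% of its 67 reads at 1 site. nuo-2 used its upstream site for 38.5% of 244 reads in L2 and for 0 of 229 in L1 muscle.

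**Figure D4:**
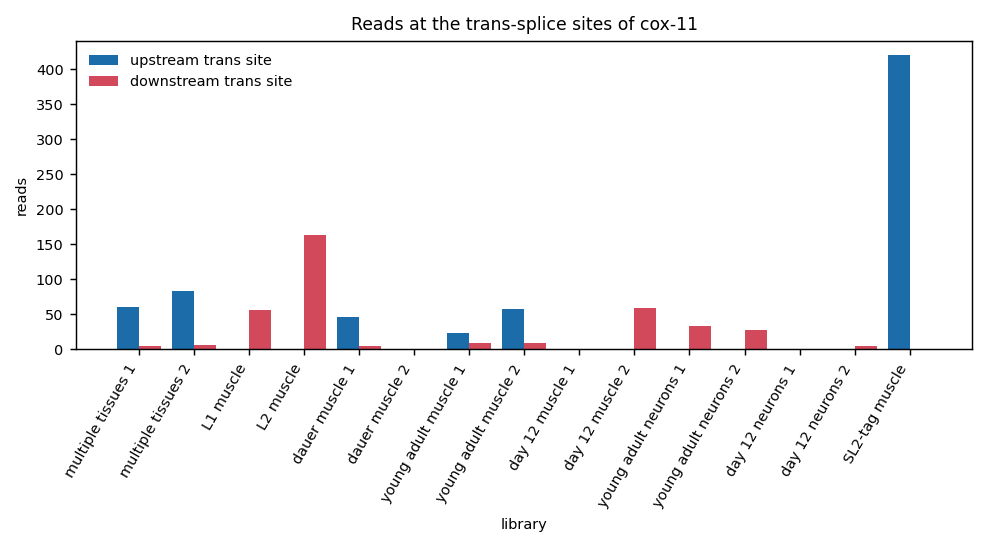
Bars give the reads at the upstream and downstream acceptor sites of cox-11 in each of 15 libraries, as raw counts. Upstream reads appear in multiple tissues, dauer replicate 1, young adult muscle and the SL2-tag library. L1 and L2 muscle, day 12 muscle replicate 2, young adult neurons and day 12 neuron replicate 2 hold downstream reads alone. Dauer replicate 2, day 12 muscle replicate 1 and day 12 neuron replicate 1 hold no read at either site.

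Counted over all 34 genes, the comparison of muscle with multiple tissues called few of them. In young adult muscle 1 of the 32 tested genes was called, ucr-2.1, which was higher, against 5.12% of all 8954 genes called (3.93% higher). In day 12 muscle 3 were called, all lower (asb-1, atp-3 and cco-1), against 9.82% of all genes (4.94% lower). In dauer muscle asb-2 was called higher and cco-1 lower, against 7.45% of all genes (5.14% higher, 2.31% lower). In larval muscle asb-2 and cyc-2.1 were called higher and asb-1 lower, against 7.01% (3.53% higher, 3.48% lower). These counts out of 32 are near the background, which makes them no result about these genes. Counts with 1 library left out, here and below, are given without the share of all genes. Calls over all genes also moved in those fits. Such counts show only that calls depended on single libraries, and are no result about these genes. With any 1 of its 4 libraries left out, young adult muscle had 0 genes called. Day 12 muscle had 0 without either multiple-tissue library, 4 without day 12 replicate 1 and 7 without day 12 replicate 2. Dauer muscle had 0 without either multiple-tissue library or dauer replicate 2, and 2 without dauer replicate 1. Larval muscle had 1 without either multiple-tissue library, 0 without L1 and 4 without L2. The median log2 fold change of the tested genes was 0.23 in young adult muscle, where that of all tested genes was 0, and 0.04 in larval muscle, where that of all genes was -1.43. In day 12 muscle the medians were -1.44 and -0.29.

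Within muscle, fewer calls were made. From young adult to day 12 muscle only ucr-2.1 passed, lower on day 12, against 1.55% of all genes (0.949% lower), and the count was 0 without either young adult library, 1 without day 12 replicate 1 and 3 without day 12 replicate 2. Between dauer and young adult muscle edgeR called 0 of the 32 genes, against 0.134% of all genes. At an unadjusted p under 0.05 there were 2 of them, against 7.72% of all genes, and DESeq2 called 1, against 7.26% of all genes with a DESeq2 adjusted p. Between dauer and larval muscle asb-1 was higher in dauer and cyc-2.1 and cco-1 were lower, against 3.29% (2.69% higher, 0.603% lower). That count was 1 without L1 or dauer replicate 1 and 0 without L2 or dauer replicate 2. Medians of the tested genes were -0.91, -0.58 and -0.97 on the log2 scale in these comparisons, and those of all genes 0, 0 and 1.35.

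In the TMM-scaled fit more of the genes were called against multiple tissues in neurons than in muscle, a count that depended on the scaling. In young adult neurons 10 of 32 tested genes were lower than in multiple tissues and 0 higher, against 17.01% of all genes called (9.21% lower). They were ucr-1, sdhb-1, asb-1, atp-5, atp-2, atp-4, isp-1, gas-1, atp-3 and asg-1, so 6 of the 8 ATP synthase genes, 2 of 6 in complex III, 1 of 4 tested in complex II and 1 of 7 in complex I. Their median log2 fold change, taken over all 32, was -1.93, but that of all tested genes was -2.05, so the median gene of the group did not stand below the median of all genes. On day 12 there were 10 genes called lower than in multiple tissues and 0 higher (ucr-1, sdhb-1, asb-1, atp-5, atp-2, atp-4, isp-1, gas-1, atp-3 and asg-1), against 12.12% of all genes (5.22% lower), with medians of -2.83 for the 32 and -0.62 for all genes. Both comparisons share the multiple-tissue libraries, so the lists are not independent of each other. On day 12, asg-1 gave -3.53 ± 0.53 (adjusted p = 0.00238), asb-1 -6.36 ± 1.11 (adjusted p = 0.00534) and atp-4 -4.13 ± 0.87 (adjusted p = 0.0132). The value of asb-1 rested on 0 and 2 neuron reads, so its size depends on the prior count (log2 -13.26 to -5.86 with 1 library left out). In young adults asb-1 gave -3.96 ± 0.91 (adjusted p = 0.0161), asg-1 -1.58 ± 0.48 (adjusted p = 0.0469) and atp-4 -3.23 ± 0.79 (adjusted p = 0.0214). Of these 3 young adult calls, that of asb-1 was lost without multiple-tissue replicate 1, multiple-tissue replicate 2 or young adult neuron replicate 1 (log2 -4.83 to -3.42, highest adjusted p = 0.0897), that of asg-1 was lost without any 1 of its 4 libraries (log2 -1.78 to -1.48, highest adjusted p = 0.235) and that of atp-4 was lost without young adult neuron replicate 2 (log2 -4.48 to -2.57, highest adjusted p = 0.102).

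These neuron counts depended on single libraries and on scaling. In young adults 5 and 4 genes were called without multiple-tissue replicates 1 and 2, and 5 and 6 without neuron replicates 1 and 2. ucr-1 alone held in all 4 of those fits, and the other 9 missed the threshold in at least 1, with the same sign. On day 12 the counts were 7 without either multiple-tissue library and 4 and 5 without neuron replicates 1 and 2, and ucr-1, asb-1, asg-1 and atp-3 held in all 4. The day 12 calls of atp-2, atp-4 and atp-5 were lost without either neuron library (highest adjusted p = 0.183, 0.102 and 0.109), and the call of isp-1 was lost without multiple-tissue replicate 1, multiple-tissue replicate 2 or day 12 neuron replicate 1 (log2 -2.81 to -2.05, highest adjusted p = 0.141). With DESeq2's size factors in edgeR 5 of the 32 genes were called in each comparison. That is near the share of all genes called in either direction, 1351 of 8954 in young adults and 1162 on day 12. Of these, 900 were higher and 451 lower in young adults, and 961 were higher and 201 lower on day 12. In young adults ucr-1 and atp-2 kept their calls, and those of asb-1, asg-1, atp-3, atp-4, atp-5, gas-1, isp-1 and sdhb-1 were lost. The rest of the 5 were not called in the main fit. Their direction is not given here, so the young adult count of 5 is not a count of lower genes. On day 12 the calls of ucr-1, asb-1, asg-1, atp-3 and atp-4 were kept. The median of all genes moved from -2.05 to -1.19 in young adults and from -0.62 to 0 on day 12, with medians of the 32 genes of -0.80 and -1.45. The neuron libraries held 57104 to 282171 reads in genes, the fewest of all groups.

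Set against each other directly, young adult muscle was higher than young adult neurons in 9 of the 32 tested genes and lower in 1, against 13.12% of all genes called (8.67% higher, 4.46% lower). The higher genes were ucr-1, atp-5, asb-2, isp-1, atp-2, cyc-1, nuo-4, nuo-5 and atp-4, of complexes I, III and V, and the lower gene was cco-1. asb-2 differed by 4.26 ± 0.88 (adjusted p = 0.0108) and atp-4 by 2.76 ± 0.78 (adjusted p = 0.0438). The call of asb-2 was lost without young adult muscle replicate 1 (log2 3.43 to 6.33, highest adjusted p = 0.0536) and that of atp-4 was lost without young adult muscle replicate 1, young adult muscle replicate 2 or young adult neuron replicate 2 (log2 2.09 to 4.00, highest adjusted p = 0.180). The median log2 difference of the 32 genes was 2.39 and that of all genes 0.56, and with DESeq2's size factors these were 1.29 and 0. With size factors 8 genes were called, against 1084 of all 8954 genes (489 higher, 595 lower). Some of the 8 were not called in the main fit. Their direction is not given here, so the split of 9 higher and 1 lower is not shown under size factors. The calls of isp-1, nuo-4, nuo-5 and atp-4 were lost with size factors (adjusted p = 0.0957, 0.0618, 0.0677 and 0.175). Without either muscle library 2 genes were called and without either neuron library 7, and ucr-1 was called in all 4 fits. Neuron markers, at 0.294 to 0.357% of reads in young adult muscle, were read in both tissues, and their part here was not tested.

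**Figure D5:**
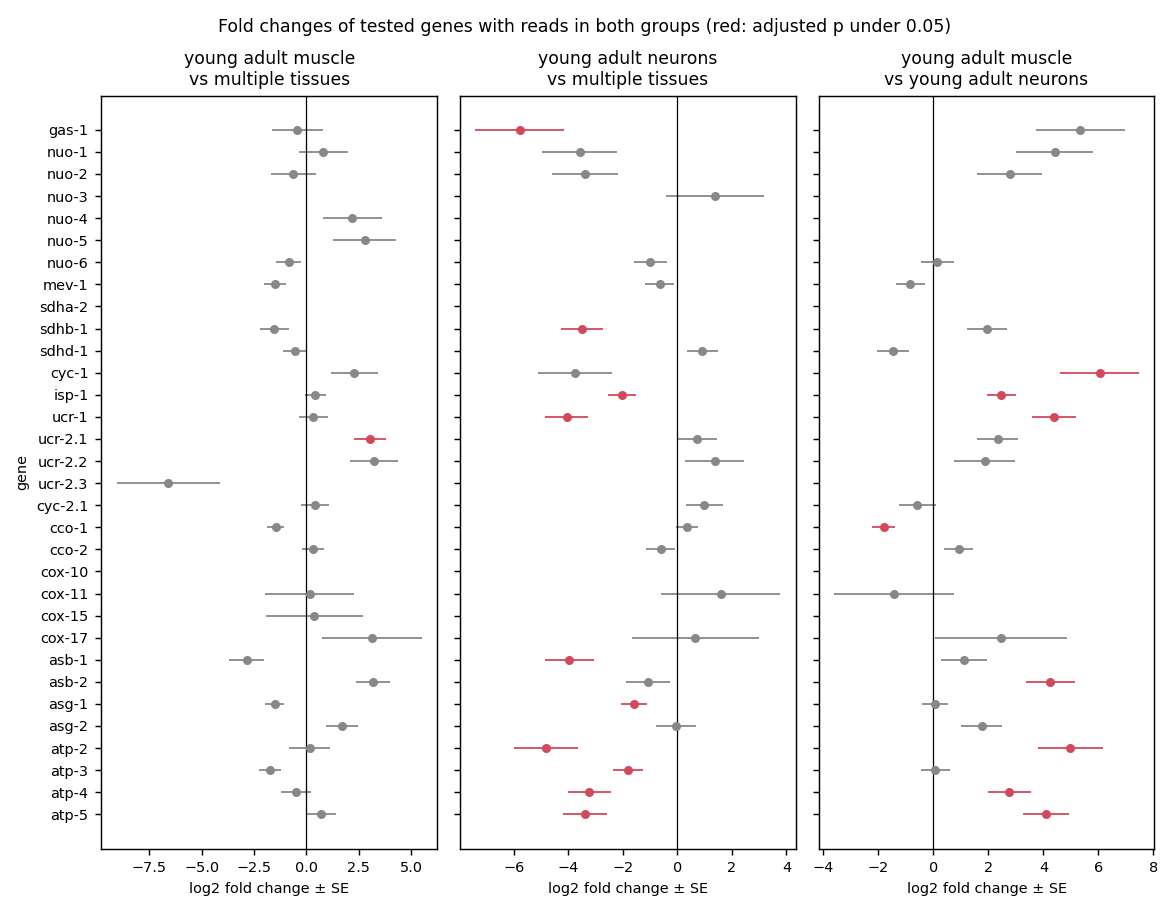
Points give the log2 fold change and bars its SE for tested genes with reads in both groups, in red where edgeR's adjusted p was under 0.05. The called genes lie to the left of 0 for young adult neurons against multiple tissues and to the right for muscle against neurons, except cco-1, and ucr-2.1 is the only call for muscle against multiple tissues.

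Whether the change from young adult to day 12 differed between muscle and neurons was asked with an interaction term. edgeR called 0 of the 32 genes, against 0.804% of all genes. At an unadjusted p under 0.05 there were 7 of them, against 14.3% of all genes, and DESeq2 called 4, against 10% of all genes with a DESeq2 adjusted p. Without day 12 muscle replicate 1 edgeR called 3 genes, without replicate 2 it called 1, and without any other library 0.

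Genes that lie downstream in an operon are the usual targets of the SL2 leader. The operon mark used here does not give a gene's place in its operon, so only operon and other genes were told apart. In the library with the SL2 tag, reads fell on 8 of the 9 genes that the deposited table places in operons. They fell on 0 of the other 25, where 3 reads would be 1.19 CPM. Of all genes, those in operons held 97.7% of reads in that library. How many of all 2009 operon genes had SL2-tag reads was not counted. atp-4 had 10408 reads, cyc-2.1 8156, cox-17 3291, asb-1 974, nuo-4 500, cox-11 420, cox-15 356 and nuo-5 30, and cyc-1 was the operon gene with none. Without scaling between libraries, cox-17 stood at 1305 CPM with the SL2 tag, 36.2 times its median over the 8 SL1-tag muscle libraries, which ran from 0 to 76.0 CPM. asb-1 stood at 386 CPM, 8.80 times its SL1 median of 43.9 CPM. nuo-5 was the one read gene below its SL1 median, at 11.9 against 37.1 CPM. There is 1 library with this tag, of mixed stage, so no test was made. CPM is a share of each library's own reads, which with the SL2 tag fell almost all on operon genes. The SL1 medians also pool muscle from L1 to day 12. These ratios therefore do not measure how often a gene takes SL2 rather than SL1.

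In the authors' deposited table for young adult muscle, 4 of 33 listed genes were marked as enriched over U2-3 (asb-2, cox-17, ucr-2.1 and ucr-2.2), or 12.12%, against 7.50% of all listed genes. The authors' deposited tables marked asb-2 alone in dauer muscle (1 of 32, against 5.89% of all listed genes) and in larval muscle (1 of 33, against 2.89%). The authors' deposited tables marked none of the listed genes in day 12 muscle (against 2.12%), young adult neurons (8.87%) or day 12 neurons (7.64%).

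Other respiratory genes, taken from a list, were counted for comparison. Of 24 further subunits in the table, all tested, 1 was higher and 8 lower in young adult neurons than in multiple tissues, against 17.01% of all genes called. On day 12, 0 were higher and 11 lower in neurons, against 12.12%. In young adult muscle 7 were higher and 0 lower than in young adult neurons, against 13.12%. Among these 7 was Y82E9BR.3, which encodes the c subunit of the ATP synthase ring, at 4.71 ± 0.70 (adjusted p = 0.00202). Another was W09C5.8, a complex IV subunit matching COX4, at 5.96 ± 0.99 (adjusted p = 0.00372). In young adult muscle over multiple tissues 2 of them were higher, C16A3.5 (2.61 ± 0.46, adjusted p = 0.00983) and nduf-5 (2.34 ± 0.58, adjusted p = 0.0471), both complex I subunits, and 0 were lower, against 5.12% of all genes called. Of 23 tested carriers, ubiquinone genes and assembly factors, compared with multiple tissues, 2 were higher and 0 lower in young adult muscle, against 5.12% of all genes called, and 2 were higher and 6 lower in young adult neurons, against 17.01%. In day 12 neurons 1 was higher and 3 were lower, against 12.12%. The genes higher in muscle were mai-1, a homolog of the ATP synthase inhibitor, at 4.44 ± 0.77 (adjusted p = 0.00888), and coq-3, a methyltransferase of ubiquinone synthesis, at 2.85 ± 0.63 (adjusted p = 0.0295). mai-1 was also higher than multiple tissues in day 12 muscle (4.96 ± 0.79, adjusted p = 0.00490), dauer muscle (4.78 ± 0.79, adjusted p = 0.00549) and young adult neurons (3.70 ± 0.75, adjusted p = 0.00911), and higher in dauer than in larval muscle (7.88 ± 1.11, adjusted p = 0.00893). Its paralog mai-2 fell in young adult neurons against multiple tissues (-3.70 ± 0.53, adjusted p = 0.00139). In the same neurons coq-3 rose by 5.51 ± 0.71 (adjusted p = 0.000814) and sod-2, the mitochondrial superoxide dismutase gene, fell (-2.39 ± 0.58, adjusted p = 0.0206).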

How the data were processed

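Whole read counts per gene were used as deposited, with the 15 libraries matched to the labels by column name. A further 3 per-sample columns in each table match none of the 15 and were left out. In 99.9946% of gene and library pairs the deposited gene count equals that gene's summed reads at trans sites in the table of sites, and this held for every pair of the genes described. The authors' deposited tables of comparisons give adjusted p-values and calls, of which only the calls were used. Trimmomatic, TopHat2 and DESeq are the tools listed, per the submitters' processing notes. For their roles, versions and genome build nothing was given in the sources used here. Gene positions come from the WBcel235 annotation.

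The 14 SL1-tag libraries were fitted with edgeR 4.0.16 (R 4.3.3) as 8 group means, L1 and L2 being groups of 1 library, after filterByExpr (8954 genes, 32 of the 34, without cyc-2.2 and sdha-1) and TMM scaling. For the quasi-likelihood F test there were 6 residual and 4.17 prior degrees of freedom with a common biological coefficient of variation of 1.09. A fold change's SE was its absolute log2 value divided by the root of F. On data simulated for young adult muscle over multiple tissues, the test recovered most known changes at a low dispersion and none with every gene at a dispersion close to the common one of these libraries, so a gene without a call is not shown to be unchanged. Alternatives were DESeq2 1.42.0 (size factors, Wald test), no filter, a replicate block, and leaving out each library, where a group left with 1 library is assumed to vary like the others. The interaction was added after the data were seen. Described in full are genes called in any comparison and all paralogs. Members, lists and comparisons were chosen with earlier results of these data known. Intervals are Clopper-Pearson at 95%, and bounds use 3 counts over the group without reads.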

Additional observations from a re-analysis of the deposited data

How the results depend on the processing

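Depth limited the neuron libraries most, and the choice of test, the scaling, the filter and single libraries each moved counts of called genes. DESeq2's Wald test called 9 genes in young adult muscle against multiple tissues, 8 in day 12 muscle, 11 in dauer and 9 in larval muscle. Of all 8954 genes it called 1196, 1709, 1420 and 1471 there, with 3298, 2431, 3298 and 2778 lacking an adjusted p. It called 7 between day 12 and young adult muscle, 1 between dauer and young adult muscle, 11 between dauer and larval muscle and 4 in the interaction. Of all genes it called 877, 360, 1141 and 550 there, with 2951, 3993, 2431 and 3472 lacking an adjusted p. DESeq2's size factors in edgeR gave 2 in young adult muscle against multiple tissues, 0 between day 12 and young adult muscle, and 5 in young adult and 5 in day 12 neurons. Of all 8954 genes they gave 452, 108, 1351 and 1162 in these comparisons. With no filter the counts were 3 in young adult, 6 in day 12, 5 in dauer and 5 in larval muscle, 3 between day 12 and young adult muscle and 16 in day 12 neurons. Among all 12606 genes then tested, 1024, 1604, 1255, 1372, 612 and 1838 were called in these comparisons. The replicate block called 2 in young adult muscle, 5 in larval muscle and 2 between dauer and larval muscle, against 599, 697 and 261 of all 8954 genes. Over all tested genes, same-numbered libraries did not deviate together (correlations from -0.037 to 0.017). With so few libraries per group and a wide spread between replicates, this cannot show whether the numbers pair samples. Leaving out 1 library gave 0 to 0 in young adult, 0 to 7 in day 12, 0 to 2 in dauer and 0 to 4 in larval muscle against multiple tissues, 0 to 3 between day 12 and young adult muscle, 0 to 0 between dauer and young adult muscle, 0 to 1 between dauer and larval muscle, 4 to 6 in young adult and 4 to 7 in day 12 neurons, 2 to 7 between muscle and neurons, and 0 to 3 in the interaction. Some log2 changes turned sign over the fits without 1 library. Between day 12 and young adult muscle asg-1 ran from -0.16 without day 12 replicate 2 to 0.85 without replicate 1. In the same way asg-2 ran from -1.96 to 0.40 and cyc-2.1 from -2.201 to 0.61. The change of sdha-2 did not turn sign. It ran from 0 without day 12 replicate 1, which held its only reads there, to 6.37. In that comparison asg-2 was at 0.14 by the Wald test and 0.13 with size factors, and cyc-2.1 at 0.25 by both. In day 12 muscle against multiple tissues asg-2 ran from -0.37 (replicate 2 out) to 1.99 (replicate 1 out), and cyc-2.1 from -1.91 (replicate 2 out) to 0.90 (replicate 1 out), with -0.03 without multiple-tissue replicate 1. In larval muscle ucr-2.1 ran from -4.35 without L1 to 3.74 without L2. The cause of the other changes was not tested. With size factors the share of all called genes that were higher moved from 45.8 to 66.6% in young adult neurons, 57.0 to 82.7% in day 12 neurons, 49.7 to 70.5% in day 12 muscle, 66.0 to 45.1% between muscle and neurons, 38.8 to 68.5% between day 12 and young adult muscle, 41.7 to 60.9% between dauer and young adult muscle and 25 to 41.2% in the interaction.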

Other observations

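Reads at cis-splice acceptors, which are not part of the gene counts, were few for most of the genes. They made up over 5% of trans and cis reads in nuo-3, nuo-5, cox-10 and cox-15. In nuo-5 they were 26.7%, or 450 reads. Of the 6 genes on the X chromosome (asb-2, asg-2, gas-1, sdha-1, ucr-2.1 and ucr-2.2), the summed share of reads was 0.0387 to 0.0410% in multiple tissues, 0.144 to 0.146% in young adult muscle, 0.128 to 0.137% in dauer muscle, 0.304% in L1 muscle and 0.0319 to 0.0411% in young adult neurons. That of the 28 genes on autosomes was 0.999 to 1.02% in multiple tissues and 0.768 to 0.793% in young adult muscle. It was 0.682 to 0.699% in dauer muscle, 2.62% in L1 muscle and 0.867 to 0.947% in young adult neurons. No test of this difference was made.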
